A study of Rattus norvegicus with 65 samples.

Results

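The drug efflux transporters are membrane pumps of the ATP-binding cassette (ABC) family that carry anthracyclines, nucleotide analogues or drug conjugates out of cells. The list held 7 rat genes, chosen by symbol for that role, with earlier results of these data known: Abcb1a, Abcb1b, Abcc1, Abcc3, Abcc4, Abcc5 and Abcg2. Of these, 6 had a row among the 14554 genes of the count table, and Abcb1b was not analysed here. The 6 genes are described across 65 RNA sequencing libraries of primary neonatal rat cardiomyocytes, heart muscle cells taken from newborn rats, kept without serum and then exposed for 6 or 24 hours to a cardiotoxic drug or to its solvent.

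The drugs were the pyrimidine analogue 5-fluorouracil (5FU) at 10 mM, acetaminophen (Ace) at 2.5 mM and the anthracycline doxorubicin (Dox) at 1.25 μM. 5FU was paired with DMSO1, wells that held 1% DMSO, and Ace and Dox were both paired with DMSO2, wells that held 0.25% DMSO, so every library, controls included, contained DMSO. Each group held 6 libraries at 6 hours except Dox and DMSO2, with 7. At 24 hours 5FU and DMSO1 held 6 libraries, and the remaining groups held 7. Hearts from 3 litters had been combined into a single cell preparation, and the wells were parallel cultures of it. The tests below therefore measure the spread between cultures and not between animals. Total counts per library ran from 14332827 to 25738297. All 12 cardiomyocyte markers looked for were present in every library and summed to at least 12894 CPM (counts scaled to a common library size with TMM factors), and markers of endothelial cells, fibroblasts and macrophages were also present.

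ABC exporters bind ATP on the inner side of the membrane and use its hydrolysis to push a substrate out against its gradient. P-glycoprotein, encoded by Abcb1a and Abcb1b in rodents, is best known for carrying anthracyclines out of tumor cells and for guarding the capillaries of brain and heart. The ABCC members, the multidrug resistance proteins, favor anionic conjugates and nucleotides, and ABCG2, the breast cancer resistance protein, works as a dimer and carries many of the same drugs. Their transcription is known to respond to stress, to xenobiotic receptors and to the oxidative stress factor NRF2.

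The genomic sequence in front of a gene is shown for the 3 members on which the results below turn and for which a promoter was given. Each is the 250 bases before the annotated start on the rat assembly GRCr8 as RefSeq gives it, 5′ to 3′ on the strand of the gene, with matches to the CCAAT box (ATTGG), the GC box (GGGCGG) and the AP-1 site (TGANTCA) in capitals on either strand.
Abcb1a, chr4:26397649-26397898, minus strand: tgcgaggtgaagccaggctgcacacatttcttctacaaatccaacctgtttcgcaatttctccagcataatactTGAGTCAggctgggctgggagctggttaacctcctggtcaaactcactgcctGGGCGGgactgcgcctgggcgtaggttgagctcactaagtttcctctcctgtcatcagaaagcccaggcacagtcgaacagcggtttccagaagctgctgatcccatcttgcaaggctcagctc
Abcc4, chr15:102181365-102181614, minus strand: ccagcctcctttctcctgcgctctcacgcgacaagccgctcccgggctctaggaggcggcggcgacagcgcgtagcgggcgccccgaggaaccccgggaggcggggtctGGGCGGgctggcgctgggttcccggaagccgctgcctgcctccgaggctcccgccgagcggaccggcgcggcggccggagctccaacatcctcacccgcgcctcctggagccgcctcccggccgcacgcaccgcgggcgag
Abcg2, chr4:89075224-89075473, plus strand: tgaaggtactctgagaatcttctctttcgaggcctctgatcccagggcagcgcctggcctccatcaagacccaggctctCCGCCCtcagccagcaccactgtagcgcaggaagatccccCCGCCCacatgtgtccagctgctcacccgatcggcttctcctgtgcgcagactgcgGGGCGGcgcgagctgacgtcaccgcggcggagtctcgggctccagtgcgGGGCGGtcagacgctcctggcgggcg
The Abcb1a window held 1 AP-1 site, which begins 176 bases before the start, and 1 GC box at 124 bases. Among all 33469 promoters of the same length, 6.34% held an AP-1 site, 30.5% a GC box and 34% a CCAAT box. The Abcc4 window held 1 GC box and the Abcg2 window held 4, and neither held an AP-1 site. The Abcc1 window, not printed, also held 4 GC boxes. None of the 4 windows of measured members held a CCAAT box, the antioxidant response element core (TGACNNNGC, in 10.1% of all promoters), the hypoxia response element core (ACGTG, in 16.6%) or a TATA box (TATAAA, in 12.9%). The GC boxes of Abcc1 overlap each other in pairs, and no other matches overlap. A match is a run of letters and not a binding site.

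The 65 libraries were ranked by their distance from the mean of their group over all genes, and the 3 farthest were set apart. That number was chosen after the data were seen. The 3 were library 1 of 5FU at 6 hours, library 1 of DMSO1 at 24 hours and library 7 of Dox at 24 hours. Their root mean square deviations were 0.368 to 0.391 on the log2 CPM scale, against at most 0.346 in the other libraries. Calls on members that change without these libraries are given both ways below.

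Abcb1a, the anthracycline exporter, was higher in Dox than in DMSO2 at both time points and by more than any other member in any comparison. At 6 hours its level was 34.2 to 46.3 CPM in DMSO2, with a median of 40.3, and 167 to 227 CPM in Dox, with a median of 221. All 7 Dox libraries lay above all 7 controls. The log2 fold change was 2.38 (SE 0.13), a 5.20-fold increase (FDR = 6.23e-25, edgeR quasi-likelihood test), and was the 270th largest increase of all 14554 genes.

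At 24 hours Abcb1a stood at 60.9 to 71.5 CPM in DMSO2, with a median of 69.0, and at 279 to 377 CPM in Dox, with a median of 314. The groups again did not overlap. The log2 fold change was 2.27 (SE 0.13), a 4.82-fold increase (FDR = 4.28e-25, edgeR), and ranked 1089th among the increases. The Dox effect did not differ detectably between the time points, with a difference of -0.11 (SE 0.18, FDR = 0.589, edgeR).

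The same gene also rose, by less, in the other drugs. In Ace at 6 hours it ranged from 52.5 to 66.4 CPM, with a median of 59.7, above all 7 DMSO2 libraries, and the log2 fold change was 0.59 (SE 0.13, FDR = 0.000198, edgeR). In Ace at 24 hours it ranged from 79.6 to 98.9 CPM, with a median of 92.2, again above all 7 controls, with a log2 fold change of 0.41 (SE 0.13, FDR = 0.00458, edgeR). That call was lost without library 7 of DMSO2, the lowest of its group (0.39, FDR = 0.0119).

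At 6 hours Abcb1a spread widely in both groups with 1% DMSO. In 5FU at 6 hours the 6 libraries read 124, 70.8, 71.6, 112, 64.3 and 109 CPM, and in DMSO1 at 6 hours 4 read 37.7 to 47.3 CPM and the others 63.6 and 64.7 CPM. Of the 5FU libraries 5 lay above all controls and 1 lay just under the highest control. The log2 fold change was 0.93 (SE 0.14, FDR = 3.55e-08, edgeR), and it was 0.82 (FDR = 8.80e-07) without library 1 of 5FU.

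At 24 hours the 5FU libraries read 78.7 to 91.4 CPM with a median of 84.5. In DMSO1, 5 libraries read 60.2 to 68.1 CPM and library 1 read 131 CPM, above every 5FU library. With that library the log2 fold change was 0.18 (SE 0.14, FDR = 0.252, edgeR) and Abcb1a was not called. Without it, the fold change was 0.41 (FDR = 0.00195) and the gene was called. The 5FU effect was smaller at 24 than at 6 hours with all libraries, by -0.75 (SE 0.19, FDR = 0.000818, edgeR). Without the 3 libraries that lay apart the difference was -0.41 and missed the threshold (FDR = 0.0246), and it also missed it with only the compared groups in the fit (FDR = 0.0216).

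**Figure D1:**
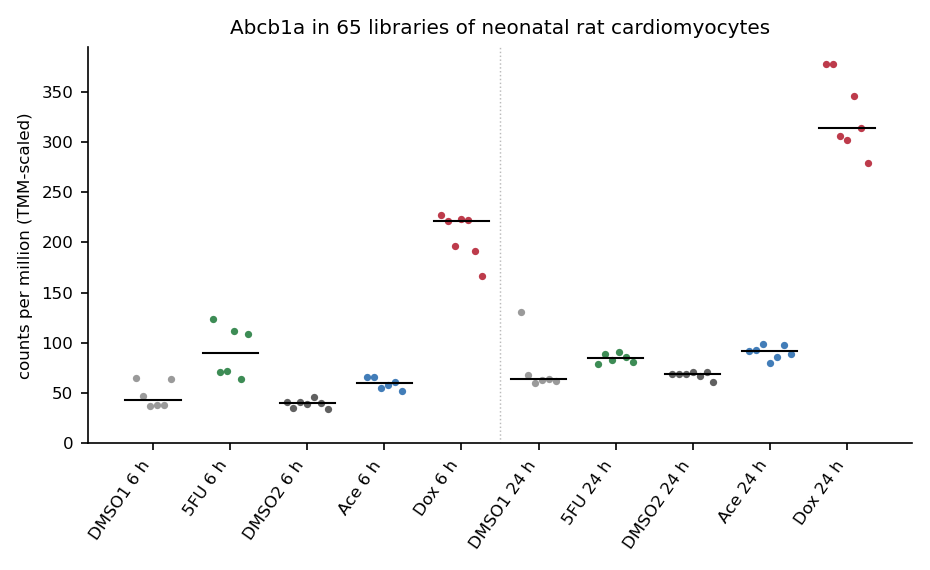
Abcb1a in each of the 65 libraries, in CPM scaled with TMM factors on an axis that starts at 0. Points are libraries, black bars are group medians, and groups left of the dotted line are at 6 hours. All Dox libraries lie at 167 CPM or above, and the highest point of any other group is library 1 of DMSO1 at 24 hours at 131 CPM.

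Over all 10 groups, Abcb1a ran from 34.2 to 377 CPM, an 11.01-fold range. The order of medians was Dox at 24 hours, Dox at 6 hours, Ace at 24 hours, 5FU at 6 hours, 5FU at 24 hours, DMSO2 and DMSO1 at 24 hours, Ace at 6 hours, and DMSO1 and DMSO2 at 6 hours. Neighbours did not overlap between the Dox groups, between Dox at 6 hours and Ace at 24 hours, and between 5FU and DMSO2 at 24 hours, and every other pair of neighbours overlapped. In the controls, Abcb1a was higher at 24 than at 6 hours by 0.71 on the log2 scale (SE 0.09, FDR = 9.85e-10, edgeR).

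The following values bear on how far the Abcb1a values can be read. Abcb1a and Abcb1b are close relatives, and how the reads they could share were divided between them was not tested here, so the Abcb1a level is uncertain. Its nearest measured neighbours on GRCr8 were Crot, a peroxisomal carnitine acyltransferase, and Rundc3b, both picked for position after the data were seen. Crot rose by 0.21 in Dox at 6 hours, 1.16 in Dox at 24 hours and 0.23 in Ace at 6 hours, and fell by 0.48 in 5FU at 6 hours (FDR = 0.001998, 3.69e-27, 0.00196 and 6.68e-09, edgeR). Rundc3b, with a mean count of only 12, rose by 0.79 in Dox at 6 hours, 1.78 in Dox at 24 hours and 0.84 in Ace at 6 hours (FDR = 0.0038, 2.12e-08 and 0.00556, edgeR), and its value in 5FU at 6 hours was -0.78 (FDR = 0.0205). Both neighbours were higher with Abcb1a in Dox and in Ace at 6 hours, and neither was higher in 5FU. Over all genes, 31.5% were called higher in Dox at 6 hours, 40.4% in Dox at 24 hours and 16.5% in Ace at 6 hours. Neighbours of other members moved as well. In Dox at 24 hours Cacna1g, beside Abcc3, changed by -1.72, and Dzip1, beside Abcc4, by 1.03 where Abcc4 was not called. Whether position had a part was not tested. In Ace at 24 hours, where Abcb1a was called higher, Crot was at -0.07 and Rundc3b at -0.40, neither called (FDR = 0.362 and 0.341, edgeR).

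The genes whose log2 CPM followed Abcb1a most closely over the 65 libraries were Fzd5, a Wnt receptor (Pearson r = 0.968), and Cd80, a ligand of T-cell receptors (r = 0.959), among 10508 genes compared. These points share the 10 groups, and a correlation over them mostly describes the differences between groups. With the group means removed, a comparison added after the data were seen, the 5 closest genes were Csf1, a macrophage growth factor (r = 0.804), Epha2, an ephrin receptor (0.780), Cd80 (0.766), Gdf15, a stress-induced cytokine (0.766), and Mdm2, a ubiquitin ligase (0.762). Without the 3 libraries that lay apart these values were 0.739, 0.663, 0.651, 0.627 and 0.637 over 62 libraries.

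These 5 genes were chosen with library 1 of DMSO1 at 24 hours included, so their high values there partly follow from the choice. Mdm2 read 191 CPM in that library, against 51.6 to 59.7 CPM in the other 5 libraries of the control and 185 to 216 CPM in 5FU at 24 hours. Gdf15 read 58.5 CPM, against 6.14 to 7.54 CPM in the other controls and 52.3 to 63.5 CPM in 5FU. For these genes the library lay with 5FU and away from its own group. Cd80 read 14.7 CPM, against 5.08 to 6.14 CPM in the other controls and 7.32 to 9.24 CPM in 5FU, and so lay above both, as did Abcb1a. None of the 5FU libraries at 24 hours lay in the range of the other controls for Mdm2 or Gdf15. For the cardiomyocyte marker Ryr2 all DMSO1 libraries at 24 hours, library 1 included, read 746 to 1247 CPM, against 338 to 401 CPM in 5FU. For the fibroblast marker Postn they read 665 to 1241 CPM against 158 to 199 CPM. The ranges of Nfe2l2, the gene of NRF2, overlapped, at 109 to 168 CPM in DMSO1 and 158 to 183 CPM in 5FU. Whether the label of this library is right was not tested. It was kept as DMSO1, and values of DMSO1 at 24 hours carry that doubt.

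Abcg2, which exports many drugs and urate, was the sparsest member, with 16 to 116 counts per library. It was lower at 24 hours in 5FU and in Dox. In 5FU it ranged from 0.825 to 1.67 CPM, with a median of 1.12, and in DMSO1 from 1.15 to 2.95 CPM, with a median of 2.03. The groups overlapped, with 3 of 6 5FU libraries below all controls. The log2 fold change was -0.84 (SE 0.18, FDR = 6.00e-05, edgeR), and -0.98 without library 1 of DMSO1, the lowest of the controls. The 5FU effect at 24 hours differed from that at 6 hours by -0.56 (FDR = 0.0423, edgeR), short of the threshold. The difference passed it without library 1 of DMSO1 (-0.69, FDR = 0.00821) and without all 3 libraries that lay apart (-0.76, FDR = 0.00457).

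In Dox at 24 hours Abcg2 ranged from 1.20 to 1.93 CPM, with a median of 1.49, and in DMSO2 from 1.86 to 2.91 CPM, with a median of 2.41. Of the 7 Dox libraries 6 lay below all controls. The log2 fold change was -0.68 (SE 0.16, FDR = 0.000123, edgeR). At 6 hours Dox read 3.62 to 5.23 CPM against 2.998 to 4.29 CPM and was not called, with a log2 fold change of 0.24 (SE 0.14, FDR = 0.116), and the difference between the time points was -0.92 (SE 0.21, FDR = 0.000121, edgeR).

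Ace gave Abcg2 values of 2.31 to 4.75 CPM at 24 hours, with a log2 fold change of 0.37 (SE 0.15, FDR = 0.0329) that missed the threshold of 0.01. The Ace effect differed from the 5FU effect at 24 hours by 1.21 (SE 0.24, FDR = 1.86e-05) and the Dox effect differed from the Ace effect by -1.05 (SE 0.16, FDR = 1.34e-08, edgeR). In the controls Abcg2 was lower at 24 than at 6 hours by -0.86 (SE 0.11, FDR = 1.45e-10, edgeR). All group medians at 6 hours, 3.79 to 4.67 CPM, were above those at 24 hours, 1.12 to 3.10 CPM, and every pair of neighbours in the order overlapped.

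ABCG2 is also a known protein of heart capillaries, so endothelial markers are given beside it. Of 12 markers, 11 were measured. Over all genes, 27.8% were called lower in 5FU, 41% in Dox and 19.1% in Ace at 24 hours. At 6 hours these shares were 24.5%, 32.7% and 15.2%. In 5FU at 24 hours 7 of the 11 markers were lower, and the sum of all 11 was 175 to 205 CPM against 244 to 341 CPM in DMSO1. In Dox at 24 hours 10 of 11 were lower and the sum was 38.5 to 76.4 CPM against 310 to 415 CPM in DMSO2. In Dox at 6 hours all 11 were lower, at 104 to 166 CPM against 284 to 355 CPM, while Abcg2 was not called. In Ace at 24 hours 8 of 11 were lower, at 187 to 324 CPM against 310 to 415 CPM, while the Abcg2 value was 0.37 and not called. At 6 hours 4 were lower in 5FU and 5 in Ace, and Abcg2 was called in neither. From 6 to 24 hours in the controls 6 markers were higher and 3 lower, against 32.7% and 31.9% of all genes, while Abcg2 was lower. Cdh5, the endothelial cadherin, fell by 3.66 in Dox at 24 hours (log2, FDR = 1.46e-34, edgeR), and Cldn5 was at 0 in 8 libraries. The part of these cells in the Abcg2 values was not tested, and in such bulk samples fewer cells of a type and less RNA per cell cannot be told apart. The genes closest to Abcg2 were Afg3l1 (r = 0.895) and Calr, a chaperone of the endoplasmic reticulum (r = 0.890).

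Abcc3, an exporter of glucuronide conjugates, showed the largest decrease of any member. In Dox at 6 hours it read 11.9 to 15.7 CPM, with a median of 13.6, against 21.2 to 25.3 CPM in DMSO2, with a median of 24.3. In Dox at 24 hours it read 9.89 to 12.3 CPM, with a median of 11.1, against 34.6 to 42.9 CPM, with a median of 37.2. The groups did not overlap at either time point. The log2 fold changes were -0.80 (SE 0.07, FDR = 3.003e-17) and -1.80 (SE 0.07, FDR = 5.94e-35, edgeR), to 0.573 and 0.287 of the control.

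The decrease in Dox was larger at 24 hours by -1.0002 (SE 0.09, FDR = 5.03e-15, edgeR). In Dox itself the range at 24 hours overlapped with that at 6 hours only through library 4 (12.3 CPM against a lowest value of 11.9 CPM), and these groups were not tested against each other. Abcc3 in the controls was higher at 24 than at 6 hours by 0.72 (SE 0.05, FDR = 3.26e-22, edgeR). In 5FU at 6 hours Abcc3 read 14.4 to 21.5 CPM against 19.8 to 25.4 CPM in DMSO1, with 5 of 6 libraries below all controls and a log2 fold change of -0.27 (SE 0.07, FDR = 0.000482, edgeR). With only the 2 groups in the fit this call was lost (FDR = 0.0207). In 5FU at 24 hours, and in Ace at both times, the changes were -0.11 to -0.05 and not called. In the order of medians the 4 groups at 24 hours other than Dox came first, and Ace at 24 hours did not overlap with DMSO2 at 6 hours, while all other neighbours overlapped. Grk5, a receptor kinase of the heart, followed Abcc3 most closely (r = 0.981), then Ralgdsl1 (r = 0.970).

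Abcc4 and Abcc5 both export nucleotides and their analogues, and they moved differently. Abcc4, which also carries cyclic AMP and prostaglandins, fell at 6 hours in 5FU and in Dox. In 5FU it read 34.5 to 43.7 CPM, with a median of 39.2, against 45.7 to 60.8 CPM in DMSO1, with a median of 55.3. In Dox it read 41.5 to 45.8 CPM, with a median of 43.97, against 48.7 to 71.4 CPM in DMSO2, with a median of 62.3. Neither drug group overlapped with its control. The log2 fold changes were -0.47 (SE 0.08, FDR = 1.22e-06) and -0.48 (SE 0.07, FDR = 6.69e-08, edgeR).

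At 24 hours Abcc4 rose in Ace, to 58.9 to 71.7 CPM against 44.3 to 59.4 CPM, with 6 of 7 libraries above all controls and a log2 fold change of 0.31 (SE 0.07, FDR = 0.000313, edgeR). In 5FU it read 50.03 to 56.7 CPM against 54.4 to 67.2 CPM, with a log2 fold change of -0.22 (SE 0.08, FDR = 0.0142) that fell short of the threshold and passed it with only the compared groups in the fit (FDR = 0.00198) and without the 3 libraries that lay apart (-0.24, FDR = 0.00728). It also passed without library 1 of 5FU (FDR = 0.0080) or library 4 of DMSO1 (FDR = 0.00707). In Dox it spread from 43.6 to 66.7 CPM around a control range of 44.3 to 59.4 CPM, and the value of 0.02 (SE 0.07) was not called. The highest of these libraries was library 7 of Dox, and without it the value was -0.01.

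The Dox effect on Abcc4 differed between 24 and 6 hours by 0.49 (SE 0.10, FDR = 3.23e-05, edgeR). The Ace effect differed by 0.36 (SE 0.11, FDR = 0.00938, edgeR), and that call was lost in 19 of 27 fits that each left out a library. Of the 10 groups, 5FU and Dox at 6 hours had the lowest medians and overlapped each other, but not 5FU at 24 hours, the next in order. Rnf14, a ubiquitin ligase (r = 0.825), and Per3, of the circadian clock (r = 0.806), were closest to Abcc4.

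Abcc5, which exports fluoropyrimidine nucleotides and cyclic GMP, was higher at 24 hours in 5FU and Ace and lower in Dox. In 5FU it read 52.5 to 64.8 CPM, with a median of 55.5, against 43.6 to 49.8 CPM in DMSO1, with a median of 45.96. All 6 libraries lay above all controls, and the log2 fold change was 0.27 (SE 0.07, FDR = 0.000645, edgeR). In Ace it read 48.9 to 59.1 CPM against 39.3 to 48.9 CPM in DMSO2, with a log2 fold change of 0.23 (SE 0.07, FDR = 0.00240, edgeR), a call lost without library 5 of DMSO2 (FDR = 0.0105).

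In Dox at 24 hours Abcc5 read 22.3 to 33.8 CPM, with a median of 30.01, below all DMSO2 libraries. The log2 fold change was -0.60 (SE 0.07, FDR = 2.57e-12, edgeR). At 6 hours none of the drugs changed it past the threshold, at 0.17 in 5FU, 0.10 in Ace and -0.17 in Dox, though the Dox value passed with library sizes in place of TMM factors (-0.33, FDR = 9.39e-05) and without library 3 (FDR = 0.00982) or library 7 (FDR = 0.0055) of DMSO2. The Dox effect grew by -0.43 between the time points (SE 0.10, FDR = 6.55e-05, edgeR), and with library sizes this was -0.23 (FDR = 0.0478). All neighbours in the order of medians overlapped, from 55.5 CPM in 5FU at 24 hours to 30.01 CPM in Dox at 24 hours. Cul9 (r = 0.89998) and Aldh5a1, an enzyme of GABA breakdown (r = 0.8997), were closest to Abcc5. Abcc5 also followed Abcc3 (r = 0.822), the closest pair among the members, and Abcb1a ran against Abcc3 (r = -0.639), over the same 65 libraries.

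Abcc1, which carries glutathione conjugates, varied least. Over all libraries it ran from 27.4 to 46.7 CPM, a 1.71-fold range, and each neighbour in its order of medians overlapped with the next. In Dox it read 27.4 to 36.2 CPM at 6 hours against 29.6 to 42.4 CPM, and 30.2 to 37.6 CPM at 24 hours against 29.3 to 43.9 CPM. The log2 fold changes were -0.18 (SE 0.07, FDR = 0.0258) and -0.20 (SE 0.07, FDR = 0.0104), both short of the threshold. The 6-hour value passed it with library sizes in place of TMM factors (-0.34, FDR = 0.00031) and without library 7 of DMSO2 (-0.23, FDR = 0.00524). The 24-hour value passed it without the 3 libraries that lay apart (-0.24, FDR = 0.00415), without library 5 of DMSO2 (-0.26, FDR = 0.000791) and without library 7 of DMSO2 (FDR = 0.00925). Against Ace, which shared these controls, the Dox effect was lower by -0.33 at 6 hours (FDR = 0.000149) and by -0.37 at 24 hours (FDR = 8.99e-06, edgeR). The genes closest to Abcc1 were Ankrd52 (r = 0.802) and Wdfy3, a protein of selective autophagy (r = 0.795).

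**Figure D2:**
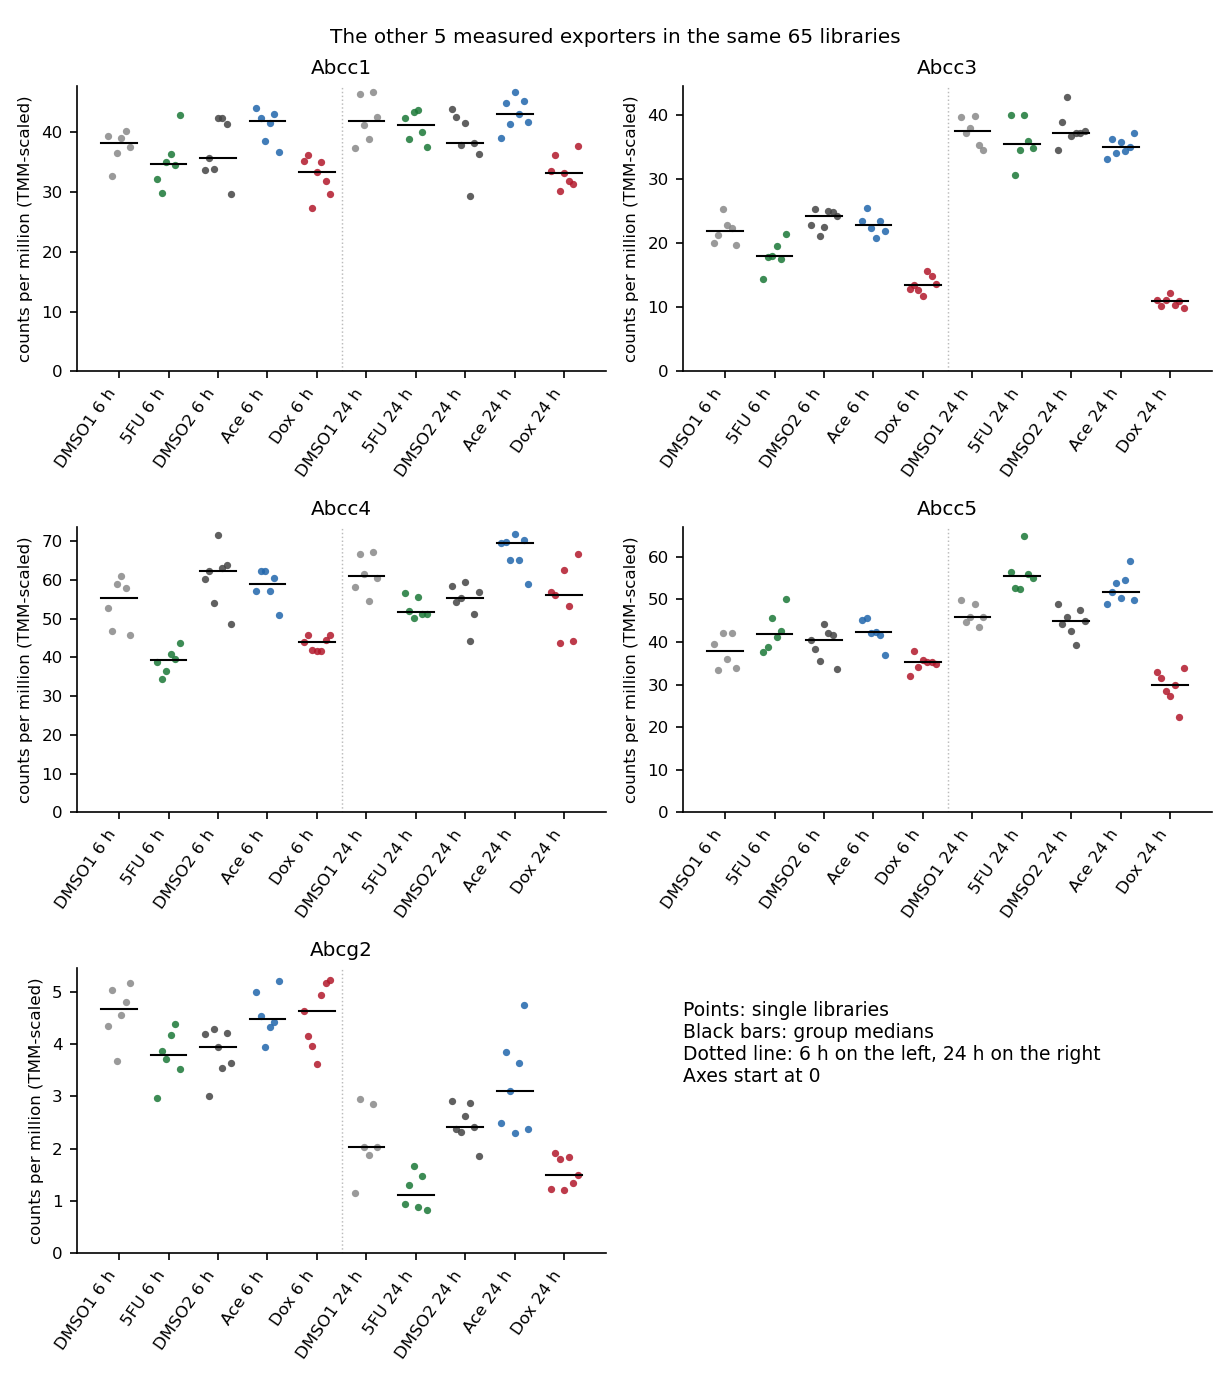
Abcc1, Abcc3, Abcc4, Abcc5 and Abcg2 in each library, in CPM scaled with TMM factors, with group medians as black bars and axes that start at 0. At 24 hours Abcc3 in Dox, at 9.89 to 12.3 CPM, lies below every other group, and the median of Abcg2 is lower at 24 than at 6 hours in every condition.

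Counted over the 6 members, with a call at FDR below 0.01 over all genes, 5FU at 6 hours raised 1 and lowered 2, where 23.4% of all genes were called higher and 24.5% lower. Ace at 6 hours raised 1 and lowered 0, against 16.5% and 15.2%. Dox at 6 hours raised 1 and lowered 2, against 31.5% and 32.7%. With library sizes in place of TMM factors the median change of all genes in Dox at 6 hours was -0.15, and the calls over all genes went from 4589 higher and 4760 lower to 3064 higher and 5998 lower.

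At 24 hours 5FU raised 1 and lowered 1, against 28% higher and 27.8% lower over all genes, and without the 3 libraries that lay apart 4 members were called. Ace raised 3 and lowered 0, against 18.2% and 19.1%. Dox raised 1 and lowered 3, against 40.4% and 41%. Beside these shares, counts out of 6 genes are no result about the members as a group. The median log2 fold change of the 6 members, which went in both directions, was -0.18 in 5FU, 0.12 in Ace and -0.18 in Dox at 6 hours, and -0.049 in 5FU, 0.27 in Ace and -0.40 in Dox at 24 hours, beside medians within 0.01 of 0 over all genes.

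**Figure D3:**
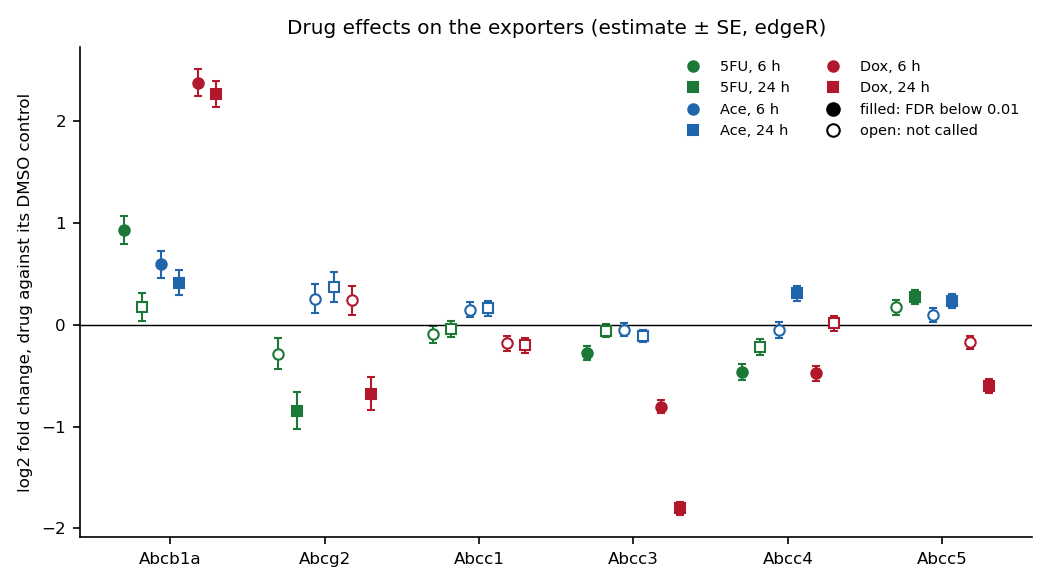
Log2 fold change of each member in each drug against its own DMSO control, with bars of 1 SE from the edgeR fit. Circles are 6 hours and squares 24 hours, and filled points were called at FDR below 0.01. Abcb1a in Dox lies above 2 at both times. Abcc3 in Dox lies at -0.80 at 6 hours and at -1.80 at 24 hours, the lowest value shown.

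The controls with different shares of DMSO were compared as well. Between DMSO1 and DMSO2, edgeR called 0 of 6 at 6 hours, where 16.5% of all genes were called, and 0 of 6 at 24 hours, where 0.433% were. At an unadjusted p below 0.05 there were 2 and 1, and DESeq2 called 0 at both times. At FDR below 0.1, edgeR called 1 at 6 hours. The largest of these values was 0.28 for Abcb1a at 6 hours (SE 0.13, FDR = 0.116). From 6 to 24 hours in the controls, 3 members rose and 1 fell, against 32.7% higher and 31.9% lower over all genes.

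The drug effects were also compared with each other. Between 24 and 6 hours, the 5FU effect differed for 1 member, against 39.5% of all genes, the Ace effect for 1, against 11.6%, and the Dox effect for 4, against 64.8%. Dox and Ace differed for 5 members at 6 hours, against 62.1%, and for all 6 at 24 hours, against 80.6%. By library size the calls over all genes went from 4946 higher and 4478 lower to 6234 and 3379 for the Dox difference between the time points, with a median of all genes of 0.27, and from 4459 higher and 4575 lower to 3221 and 5562 for Dox against Ace at 6 hours, with a median of -0.11. Against Ace, Abcb1a was higher in Dox by 1.79 (SE 0.13) and 1.85 (SE 0.13), while at 24 hours the other 5 were lower. Dox and 5FU differed for 3 members at 6 hours, against 45.9%, and for 3 at 24 hours, against 71.1%, each time Abcb1a, Abcc3 and Abcc5. Ace and 5FU differed for 1 at 6 hours, against 30.9%, which was Abcc4 at 0.41 (SE 0.11, FDR = 0.00177, with Abcg2 also called at 0.52 when only the compared groups were in the fit), and for 2 at 24 hours, against 37.3%, which were Abcc4 and Abcg2.

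Other genes around drug transport were read from lists written by hand. Of 16 other ABC exporters, 13 were measured, and in Dox at 24 hours 8 were higher and 3 lower, with a median of 0.39. Over all genes 40.4% were higher and 41% lower in that comparison. The 3 that fell were Abca8a (-3.43), Abcc8 (-2.60) and Abcc9 (-2.29), and the last pair are the regulatory subunits of ATP-sensitive potassium channels and do not export drugs. Abcc9 stood at 76.1 to 101 CPM in Dox against 379 to 459 CPM in DMSO2. Abcc2, the canalicular relative of Abcc3, had a mean count of only 7.25 and was not called in Dox at 24 hours (0.58, FDR = 0.0701). Abcb4 was not analysed here.

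All 8 mitochondrial and peroxisomal ABC transporters were measured and called in Dox at 24 hours, 4 higher and 4 lower, with a median of 0.40. Beside the shares over all genes, 40.4% higher and 41% lower, these counts are no result about the list. Abcb10, of the mitochondrial inner membrane, rose by 1.41 on the log2 scale. The uptake and SLC export carriers, 13 of 20 measured, had 3 higher and 5 lower in Dox at 24 hours, with a median of -0.37. In Ace at 24 hours 1 was higher and 7 lower, with a median of -0.58, against 18.2% and 19.1% of all genes. Slc29a1, the nucleoside carrier through which fluoropyrimidine nucleosides enter cells, changed by 0.36 in Dox and -0.32 in 5FU at 24 hours (FDR = 4.86e-07 and 4.46e-05, edgeR). Among organic anion carriers in Dox at 24 hours, Slco2a1 rose by 0.42 and Slco3a1 changed by -0.37.

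Of 24 regulators of exporter transcription, 21 were measured, and 13 were higher and 6 lower in Dox at 24 hours, with a median of 0.42. Over all genes 40.4% were higher and 41% lower. Ahr, the dioxin receptor, rose by 3.56, from 5.44 to 7.32 CPM in DMSO2 to 68.2 to 81.4 CPM in Dox. Keap1, the adaptor that marks NRF2 for degradation, changed by -2.13, from 79.1 to 84.6 CPM to 15.2 to 20.8 CPM. Nfe2l2, which encodes NRF2, rose by 1.01. Nr1i3, the constitutive androstane receptor, changed by -2.86, and Nr1i2 was not analysed here.

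Of 16 NRF2 targets, 14 were measured. In Dox at 24 hours 11 were higher and 2 lower, with a median of 0.84, where 40.4% of all genes were higher. In Ace 10 were higher and 1 lower, with a median of 0.61, against 18.2% of all genes higher, and in 5FU 7 were higher and 2 lower, with a median of 0.38, against 28%. In the controls, 12 of the 14 were lower at 24 than at 6 hours and 1 was higher, with a median of -0.73. Gclc, the rate-limiting enzyme of glutathione synthesis, was higher at 24 hours by 2.92 in Dox and 1.25 in Ace. Nqo1, a quinone reductase, was higher by 2.66 and 1.26, and Srxn1 by 3.19 and 1.55. The median of Nqo1 was 160.2 CPM at 6 hours and 31.2 CPM at 24 hours in DMSO2, 178 and 206 CPM in Dox, and 233 and 76.4 CPM in Ace, so these differences at 24 hours stand against a control that was lower than at 6 hours. At 6 hours Dox had 4 targets higher and 5 lower, against 31.5% higher and 32.7% lower over all genes. Ace had 7 higher and 1 lower, against 16.5% and 15.2%, and 5FU had 7 higher and 2 lower, against 23.4% and 24.5%. The enzymes that make conjugates for these pumps, 12 of 20 measured, had 4 higher and 6 lower in Dox at 24 hours. Their median was -0.26, and over all genes 40.4% were higher and 41% lower. Papss1, which makes the sulfate donor, changed by -1.99, Mgst1 by -1.73 and Gstm1 by -0.95.

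**Figure D4:**
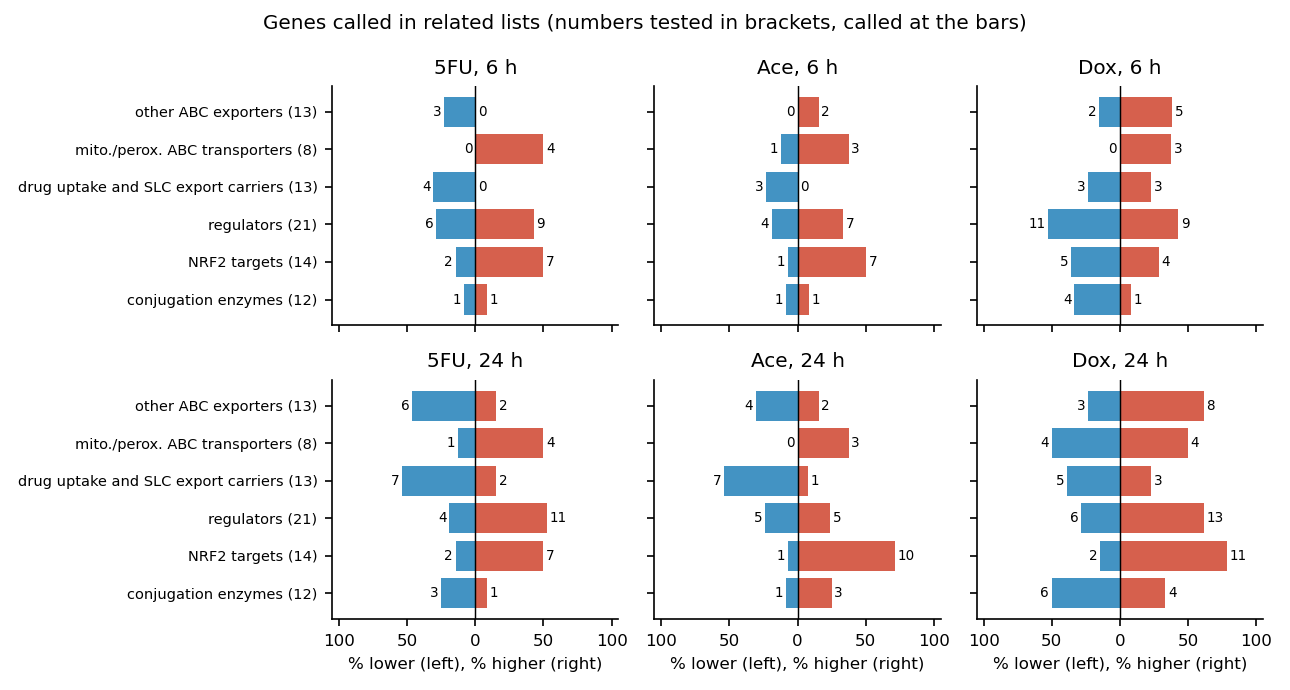
Share of the measured genes of each list that were called higher (right, red) or lower (left, blue) in each drug against its control, in percent, at 6 hours (top) and 24 hours (bottom). Numbers at the bars are genes called, and NRF2 targets in Dox at 24 hours show 11 higher and 2 lower. Over all genes 40.4% were higher and 41% lower in that comparison.

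Markers of the cell types in the culture moved with Dox as well. Over all genes, 40.4% were called higher and 41% lower in Dox at 24 hours. At 24 hours 11 of 12 cardiomyocyte markers were lower, and their sum was 12894 to 17180 CPM against 39193 to 49466 CPM in DMSO2. Of 10 fibroblast markers 9 were lower, at 2556 to 5050 CPM against 15680 to 19740 CPM, and of 10 macrophage markers 9 were lower and 1 higher, at 48.7 to 66.9 CPM against 116 to 144 CPM. Of 9 pericyte and smooth muscle markers 4 were higher and 5 lower, and their sum was 2304 to 4447 CPM, with a median of 4068, against 2474 to 2722 CPM, with a median of 2566. At 6 hours that sum was 3815 to 6369 CPM in Dox against 3378 to 3706 CPM in DMSO2. Des weighs heavily in this sum, with a lowest count of 29292 in any library, against 2018 for Mcam, the next marker. In Dox at 24 hours Rgs5 read 1.05 to 3.29 CPM against 16.02 to 27.5 CPM in DMSO2. Myh11 went the other way, at 77.7 to 99.8 CPM against 12.4 to 17.6 CPM. The sum therefore does not show whether pericytes or smooth muscle cells changed. Cd163, a macrophage marker, was at 0 in 4 libraries, and Pecam1 was not analysed here. In 5FU at 24 hours all 10 fibroblast markers and 7 of 12 cardiomyocyte markers were lower, and in Ace 9 and 5. Of all genes, 27.8% were lower in 5FU and 19.1% in Ace at that time. The part of these shifts in the members' values was not tested.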

How the data were processed

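The labels and methods describe paired-end sequencing of polyadenylated RNA, with transcripts of the Ensembl rat annotation quantified in kallisto 0.46.0. The authors then collapsed them to Entrez genes and dropped genes low in all samples. The deposited counts are whole numbers, not normalized. Column names give the group only, and libraries carry numbers by column order within it. Transcript lengths were not used, so levels are not compared between genes. A gene was tested if any library reached 10 counts, which all 14554 did. The fit was edgeR 4.0.16 in R 4.3.3 (TMM factors from 0.859 to 1.07, glmQLFit and glmQLFTest, 2-sided, the 10 groups as terms, 18 contrasts). Calls were made at a Benjamini-Hochberg FDR below 0.01 over all genes. Log2 CPM used a prior count of 2. The script was tested on simulated data in which few genes changed, equally up and down, so this did not test the scaling. DESeq2 1.42.0 and other settings were alternatives. The members and lists were chosen with earlier results of these data known. Beside the members, the text names up to 3 genes of a list with the largest change among those called in Dox at 24 hours at a mean count of at least 100, genes of known role (Nfe2l2, Abcc2, Cdh5, Nr1i2, Abcb4, Pecam1), and the 2 genes closest to each member. Some genes that this rule selects are not reported here. Genomic order and promoters came from RefSeq on GRCr8. Symbols were found for 14009 identifiers and promoters for 4 of the 6 measured members.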

Additional observations from a re-analysis of the deposited data

Results flagged for a closer look

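In 60 groups of a member's values, the highest or lowest library was compared with its nearest neighbour by Dixon's ratio, and 3 stood apart, where chance gives about 1 in 20. Abcb1a in DMSO1 at 24 hours was 131 CPM in library 1, with the next library at 68.1 CPM. Abcb1a in DMSO2 at 24 hours was 60.9 CPM in library 7, with the next at 67.0 CPM. Abcc5 in 5FU at 24 hours was 64.8 CPM in library 4, with the next at 56.4 CPM.

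Of the drug effects, 6 differed between 24 and 6 hours in the edgeR test of the difference itself, on the log2 scale. For 5FU this was Abcb1a at -0.75, where the value was -0.51 (FDR = 0.0068) without library 1 of DMSO1 at 24 hours. For Ace it was Abcc4 at 0.36. For Dox the differences were -1.0002 for Abcc3, 0.49 for Abcc4, -0.43 for Abcc5 and -0.92 for Abcg2.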

How the results depend on the processing

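Counts of members called changed by more than 1.5 times as follows. At FDR below 0.1 they were 5 in 5FU and Dox at 6 hours, 5 in Ace at 24 hours, 1 between DMSO1 and DMSO2 at 6 hours, and 4 for 5FU between the time points and for Ace against 5FU at 6 hours. With a change of at least 1 on the log2 scale also required, they were 0 in 5FU and Ace at both times, in the controls over time, for 5FU and Ace between the time points and for Ace against 5FU at 6 hours, 1 in Dox at 6 hours, for Dox between the time points, for Dox against Ace or 5FU at 6 hours and for Ace against 5FU at 24 hours, 2 in Dox at 24 hours and 3 for Dox against Ace at 24 hours. Dox at 6 hours had 5 by library size. With only the compared groups, 5FU between the time points had 0 and Ace against 5FU at 6 hours had 2. With DESeq2 size factors or filterByExpr, Ace between the time points had 0. Without the 3 libraries apart, an alternative chosen after seeing the data, 5FU at 24 hours had 4. Leaving out single libraries gave 3 to 5 in Dox at 6 hours, 1 to 2 for 5FU between the time points and 0 to 1 for Ace. The cause of these changes was not tested.

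Signs turned only for values that were not called. By library size these were Abcc1 (-0.065) between the DMSO controls at 6 hours and Abcc3 (0.029) at 24 hours, Abcc3 in Ace (0.029), Abcb1a in Dox (0.095) and Abcc1 in Dox (0.18) between the time points, and Abcc3 (0.0097) and Abcc5 (0.023) for Ace against 5FU at 24 hours. With filterByExpr they were Abcc1 in Dox between the time points (1.22e-05) and Abcc4 in the controls (-0.0030). For Abcg2 in Dox against Ace at 6 hours the value was 0.016 with DESeq2 size factors and 0.014 with the DESeq2 Wald test. For Abcc4 in Dox against 5FU at 6 hours it was 0.012 and 0.013, and 0.0023 with only the compared groups. Without the 3 libraries they were Abcc4 in Dox at 24 hours (-0.041), Abcb1a between the DMSO controls at 24 hours (-0.099) and Abcc1 in 5FU between the time points (-0.0058).

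Leaving out single libraries gave -0.073 to 0.0072 for Abcc1 in 5FU at 24 hours, -0.030 to 0.092 for Abcc4 in Dox at 24 hours, -0.027 to 0.059 for Abcc1 between the DMSO controls at 6 hours, and -0.10 to 0.19 for Abcb1a and -0.035 to 0.018 for Abcc3 at 24 hours. Between the time points it gave -0.049 to 0.063 for Abcc1 and -0.015 to 0.17 for Abcg2 in Ace, -0.069 to 0.026 for Abcc1 in Dox, and -0.017 to 0.049 for Abcc4 in the controls. At 6 hours it gave -0.077 to 0.026 for Abcg2 in Dox against Ace and -0.056 to 0.038 for Abcc4 in Dox against 5FU. Of single-gene values under the other settings, 747 kept direction and call. Abcg2, at 16 to 116 counts, is the member that depth limits most. No paired analysis was possible because the columns of the count table carry no replicate numbers. The planned share and sum of Abcb1a and Abcb1b were not run.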
